A study of Drosophila melanogaster with 4 samples.

Results

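3RHet is a stretch of assembled repeat-rich sequence that FlyBase release 5 assigns to the heterochromatin of the right arm of chromosome 3 without joining it to that arm. All clusters of HP2 enrichment on this scaffold were taken, which gave 341 of the 12660 clusters in the list made from both replicates, here called the combined list. A cluster is a region that the authors called as enriched in chromatin immunoprecipitation sequencing (ChIP-seq) over the input. The members were chosen by their sequence name alone, and no width, score or overlap between replicates was used to pick them. The scaffold itself was chosen with earlier results of these data known. The label of heterochromatin comes from the assembly, and no other chromatin mark was measured with which it could be checked.

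HP2 is the product of Su(var)2-HP2, a gene whose mutation suppresses the silencing of genes placed next to heterochromatin. The protein binds heterochromatin protein HP1a, which in turn recognises histone H3 methylated on a lysine of its tail. Pericentric heterochromatin of Drosophila, where HP1a is concentrated, holds satellite repeats, remnants of transposable elements and a small number of genes that are active in that setting.

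The study mapped HP2 with antibody Ab2-90 in nuclei of wild-type Oregon-R larvae of Drosophila melanogaster at the third larval instar. Its 4 libraries are 2 ChIP samples and the 2 inputs that go with them as replicates 1 and 2, with no mutant, treatment or second stage. Replicate 1 gave 4092 clusters over all sequences and replicate 2 gave 7017. The lists give positions and scores but no reads, which leaves sequencing depth unknown. Nothing in the labels ties the replicates to separate cultures, and their spread may be technical. The smallest p that an exact two-sided sign-flip test allows with 2 libraries is 0.5, so the values below are given with their spread and without a test.

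Nearly all of the HP2 signal called on 3RHet in replicate 1 was also called in replicate 2, which marked about 3 times as much of the scaffold. Replicate 1 had 127 clusters on 3RHet and covered 359.05 kb, or 14.3% of its 2.52 Mb. Replicate 2 had 270 clusters and covered 1116 kb, or 44.3%. The mean cover, meaning the percentage of the sequence under clusters, was 29.3 ± 21.3% (SD, n = 2). The combined list covered 1315 kb, or 52.2%. Between the replicates the level of cover thus differed by a factor of 3.11 on 3RHet, against 2.15 over all sequences.

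All 127 replicate 1 clusters of 3RHet overlapped a replicate 2 cluster by at least 1 bp, against a background of 86.0% of all replicate 1 clusters. With 0 of 127 left without a partner, the exact (Clopper-Pearson) 95% interval of the overlapped share ran from 97.1 to 100%. Of the covered bases of replicate 1, 355.6 kb or 99.0% lay under replicate 2 clusters. In the other direction 96 of 270 replicate 2 clusters overlapped replicate 1, or 35.6% (95% interval 29.8 to 41.6%), against a background of 41.7%. The 2 lists were therefore nested on 3RHet, with the smaller one inside the larger. Where each cluster of a pair had to share at least 50% of its width, the overlapped shares were 31.5% for replicate 1 and 14.8% for replicate 2. These binomial intervals, here and below, hold for counting error alone and take clusters as independent, which neighbours need not be.

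The clusters of replicate 2 were wider on this scaffold, and 21 of the 270 overlapped more than 1 cluster of replicate 1. Median widths were 2.00 kb in replicate 1 and 2.78 kb in replicate 2, with interquartile ranges of 1.49 to 2.83 kb and 1.85 to 4.32 kb. The widest cluster was 13.4 kb in replicate 1 and 30.4 kb in replicate 2. Of the 96 overlapped replicate 2 clusters, 75 held 1 replicate 1 cluster, 11 held 2, 9 held 3 and 1 held 5. Overlapped replicate 2 clusters had a median width of 5.13 kb and the other 174 one of 2.13 kb. Within the replicate 2 list their median scores were 1.03 and 0.836, in the authors' units, for which no scale is stated.

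The 341 combined clusters divided by width and by the replicates that supported them. A cluster in each replicate list was overlapped by 93 of them, or 27.3% (95% interval 22.6 to 32.3%), against a background of 22.3% over all sequences. A further 158, or 46.3% (40.9 to 51.8%), overlapped replicate 2 only, against a background of 29.9%. None overlapped replicate 1 only, against a background of 3.82%, and the exact 95% interval for 0 of 341 reached up to 1.08%. The remaining 90, or 26.4% (21.8 to 31.4%), overlapped neither list, against a background of 43.9%. The share in both lists was near the background, while the share in replicate 2 alone lay above it and the share in neither below it. The shares in replicate 2 alone and in neither were 41.3% and 17.0% on 3LHet, the scaffold of the other arm. They were 40.0% and 17.1% on chromosome 4, and 31.2% and 41.1% on the proximal 3 Mb of 3R. Replicate 2 covered 44.3% of 3RHet against 15.4% of all sequences. Overlap by chance rises with cover, and its part in these shares was not tested. When 1 cluster of a replicate had to cover at least 50% of the combined cluster by itself, only 32 of the 341, or 9.38%, passed in both. Several clusters of a replicate within the same combined cluster were not added up for this rule.

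Support in both replicates went with width, on 3RHet as over all sequences. Over all sequences the median widths were 3.71 kb for clusters in both lists, 1.99 kb in replicate 2 only and 1.22 kb in neither. On 3RHet the 93 clusters seen in both lists had a median width of 5.495 kb (range 2.02 to 30.2 kb) and held 54.8% of the combined bases. The 158 seen in replicate 2 only had a median of 2.62 kb (1.01 to 10.9 kb) and held 36.1%. The 90 seen in neither had a median of 1.20 kb (1.00 to 2.49 kb) and held 9.11%. Of the 71 combined clusters over 5 kb, 55 were seen in both replicates, 16 in replicate 2 only and 0 in neither, whereas of the 31 clusters up to 1.1 kb, 0 were seen in both, 1 in replicate 2 only and 30 in neither. A wide region can touch a partner by chance more easily than a narrow one, and that part of the relation was not tested.

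Inside the 93 clusters seen in both lists, replicate 2 filled nearly the whole cluster and replicate 1 a part of it. The median share of the cluster under replicate 2 was 97.5% (range 37.3 to 100%), and the median share under replicate 1 was 45.0% (8.10 to 95.9%). Of these clusters, 73 held 1 replicate 1 cluster, 9 held 2, 9 held 3, 1 held 4 and 1 held 5. Over the 93 clusters the combined score followed the best replicate 2 score within the cluster (Spearman's rho 0.94) more closely than the best replicate 1 score (rho 0.56). These are descriptions across clusters, which share their libraries, and how the authors joined the replicates is not stated.

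Along the scaffold the HP2 clusters were not spread evenly. In windows of 100 kb, counted from position 1, cover exceeded the scaffold's own cover in both replicates in 5 of 26 windows, or 19.2%, against a background of 28.2% of 1405 windows set against their own sequences. The 5 windows adjoined each other and formed a single block from 3RHet 1600001 to 2100000. The block makes up 19.9% of the scaffold, and 59.7% of the covered bases of replicate 1 lay in it, against 30.6% for replicate 2 and 27.7% for the combined list.

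**Figure D1:**
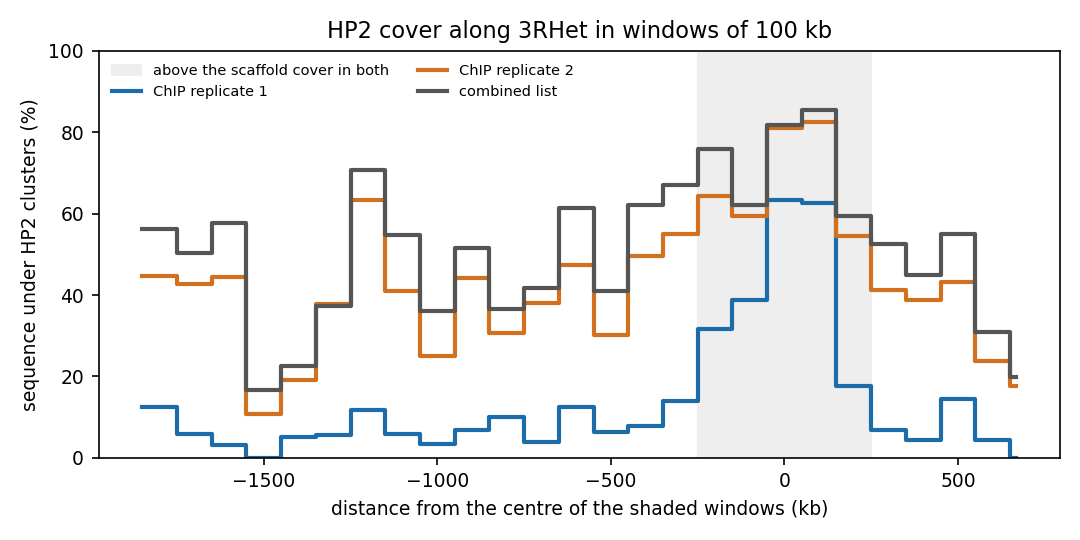
Percentage of each 100 kb window of 3RHet under HP2 clusters (y axis) against the distance in kb from the centre of the 500 kb block (x axis), for ChIP replicate 1, ChIP replicate 2 and the combined list. Shading marks the 5 windows above the scaffold's cover in both replicates, where replicate 1 reached 17.8 to 63.4% and otherwise stayed at or under 14.4%; the last window is 17.5 kb long.

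Within the block, replicate 1 covered 17.8 to 63.4% of each window and replicate 2 54.5 to 82.6%. In the other 21 windows replicate 1 covered 0 to 14.4%, with a median of 5.97%, and replicate 2 covered 10.7 to 63.4%, with a median of 40.9%. The windows inside and outside did not overlap in replicate 1, which in part follows from the way the block was delimited. In replicate 2 they overlapped, since the outside windows 3RHet 600001 to 700000 and 1500001 to 1600000 were covered to 63.4% and 55.0%, above the 54.5% of the lowest window of the block.

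Over the whole block the cover was 42.9% in replicate 1 and 68.4% in replicate 2, and outside the block it was 7.17% and 38.4%. The block was thus covered 5.97-fold as densely as the rest of the scaffold in replicate 1 and 1.78-fold in replicate 2 (3.88 ± 2.96-fold, SD, n = 2). A fold above 1 in each replicate is fixed by the rule that delimits the block and is no separate result. The spread between the replicates was smaller than the mean fold but large beside it. Cover of the block in replicate 2 was 1.60 times that in replicate 1, while outside it the ratio was 5.35. By window, this ratio lay between 1.28 and 3.07 in the block and between 3.01 and 13.6 in the 19 outside windows that had any replicate 1 cluster. In percentage points the replicates differed by 25.6 inside the block and 31.2 outside it, so the contrast lies in the ratio more than in the difference. The block was chosen by high cover in both replicates, and cover cannot exceed 100%. How far either lowers the ratio in the block was not tested.

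The order of the windows was nevertheless similar. Over the 26 windows Spearman's rho between the covers of the replicates was 0.83, and over the 21 windows outside the block it was 0.70, as descriptions across windows of the same libraries. The 5 windows with the highest mean cover were 3RHet 1900001 to 2000000 (62.6% in replicate 1 and 82.6% in replicate 2), 1800001 to 1900000 (63.4% and 81.1%), 1700001 to 1800000 (38.8% and 59.5%), 1600001 to 1700000 (31.7% and 64.3%) and 600001 to 700000 (11.9% and 63.4%). The last of these lay 900 kb before the block and exceeded the scaffold's cover in replicate 2 but not in replicate 1. Its first 50 kb, 600001 to 650000, exceeded it in both, with 21.0% in replicate 1 and 70.6% in replicate 2. The 5 lowest were 300001 to 400000 (0% and 10.7%), the incomplete end window 2500001 to 2517507 (0% and 17.5%), 400001 to 500000 (5.01% and 19.1%), 2400001 to 2500000 (4.31% and 23.9%) and 800001 to 900000 (3.38% and 24.9%).

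In windows of 50 kb, 13 of 51 exceeded the scaffold's cover in both replicates, and 5 of these lay outside the block. Those 5 started at 3RHet 1, 600001, 1250001, 1500001 and 2300001. Of the 10 windows of 50 kb in the block, 8 exceeded the scaffold's cover in both replicates. The exceptions were 3RHet 1700001 to 1750000, where replicate 2 covered 37.5% and replicate 1 21.2%, and 2000001 to 2050000, where replicate 1 covered 10.2% and replicate 2 56.4%. The 5 windows of 50 kb from 1750001 to 2000000 were covered to 52.7 to 74.2% in replicate 1 and to 74.7 to 90.5% in replicate 2. When clusters with at most 1 kb between them were joined, the longest stretch of the combined list ran from 1884192 to 1977484, or 93.3 kb, out of 8 clusters. The longest joined stretch of replicate 2 was 71.7 kb (1866540 to 1938233, out of 6 clusters) and that of replicate 1 was 32.1 kb (1943104 to 1975241, out of 5 clusters). All 3 lay in the block, which follows at least in part from its choice by cover.

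**Figure D2:**
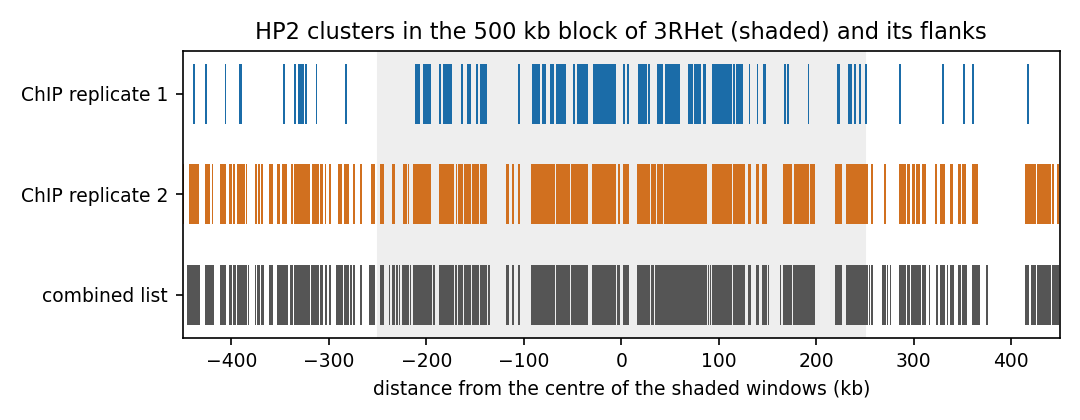
Clusters of ChIP replicate 1, ChIP replicate 2 and the combined list (rows) drawn to scale as bars against the distance in kb from the centre of the 500 kb block of 3RHet, which is shaded, with 200 kb on either side. Bars of replicate 1 crowd in the central part of the block, where those of replicate 2 merge into stretches of up to 30.4 kb.

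The block was made of fewer and wider clusters than its surroundings. It held 49 combined clusters, or 98.0 per Mb, against 144.7 per Mb in the rest of the scaffold, with median widths of 3.45 and 2.33 kb. In replicate 2 it held 42 clusters (84.0 per Mb, median 5.26 kb) against 113 per Mb and 2.63 kb outside. In replicate 1 both density and width were higher in the block, with 49 clusters (98.0 per Mb, median 3.06 kb) against 38.7 per Mb and 1.60 kb. The block therefore had 38.6% of the replicate 1 clusters of 3RHet (95% interval 30.1 to 47.6%) but 15.6% of the replicate 2 clusters (11.4 to 20.4%). Of the 49 combined clusters in the block 26 were seen in both replicates, or 53.1% (38.3 to 67.5%), against 67 of 292, or 22.9% (18.2 to 28.2%), in the rest. The block was delimited by its cover in both replicates. Its wider clusters and its higher shares of clusters seen in both and of replicate 1 clusters follow at least in part from that choice.

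Scores did not mark the block in the same way in the replicates. The median score of replicate 2 was 1.20 in the block and 0.894 outside it. In replicate 1 the medians were 0.726 in the block and 0.752 outside, and scores overlapped over most of their range, at 0.206 to 1.44 in the block and 0.469 to 2.57 outside. The dense cover of replicate 1 in the block thus went with more and wider clusters and not with higher scores. In replicate 2 wider clusters tended to have higher scores over the 270 clusters (Spearman's rho 0.54), and in replicate 1 the relation was weak over the 127 clusters (rho 0.18). Over the 129 overlapping pairs of clusters, rho between the scores of the replicates was 0.36.

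Of the 10 highest-scoring combined clusters seen in both replicates, 9 had their centre in the block, against 26 of all 93 clusters seen in both. The block was chosen by its cover in both replicates, and score rose with width over the 93 clusters (Spearman's rho 0.40). The count of 9 is therefore not independent of that choice. The leading cluster of the 10, 3RHet 1704854 to 1712020, was 7.17 kb wide with a combined score of 1.93. Its best scores were 1.40 in replicate 1 and 2.26 in replicate 2. It was under clusters over 95.9% of its width in replicate 1 and over its whole width in replicate 2. Next were 3 neighbours that lay within a span of 61.7 kb. These were 1798904 to 1815994 (17.1 kb, combined score 1.59), 1820192 to 1844714 (24.5 kb, 1.58) and 1783000 to 1797814 (14.8 kb, 1.50). Replicate 1 covered 79.7%, 95.8% and 69.0% of these 3, and replicate 2 covered at least 99.6% of each.

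The cluster 1636532 to 1655430 (18.9 kb, 1.49) and its neighbour 1662482 to 1678592 (16.1 kb, 1.23) stood in the first window of the block. Replicate 1 covered 74.7% and 70.7% of them. The remaining clusters of the 10 inside the block were 1757466 to 1782468 (25.0 kb, 1.16), 1866544 to 1879944 (13.4 kb, 1.15) and 2080322 to 2102742 (22.4 kb, 1.14). The last of these reached past the end of the block, was split into 5 clusters in replicate 1 and was covered by that replicate to 52.5%. The only one of the 10 outside the block was 1322774 to 1325070, which was also the narrowest at 2.30 kb. Its score was 1.18 within the combined list, with best scores of 1.16 within replicate 1 and 1.21 within replicate 2.

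The 10 widest combined clusters were also mostly in the block, which held 8 of them. This follows at least in part from the choice of the block by its cover. The widest, 1893550 to 1923762, spanned 30.2 kb with a combined score of 1.01. A single replicate 2 cluster covered almost all of it and 3 replicate 1 clusters covered 65.4%. The cluster 1942846 to 1963890 (21.0 kb, combined score 1.09) was covered to 94.4% in replicate 1. Wide clusters were not equally supported by both replicates. The cluster 541074 to 557796 (16.7 kb, 0.839) was covered to 99.3% in replicate 2 but to 8.35% in replicate 1, by 1 cluster. Likewise 2026708 to 2043406 (16.7 kb, 0.651), near the far end of the block, was covered to 89.3% by 4 replicate 2 clusters and to 8.10% by 1 replicate 1 cluster. The wide cluster 1514104 to 1530588 (16.5 kb, 1.07), which lies before the block, lay under replicate 1 clusters over 57.4% and under a replicate 2 cluster over 100% of its width.

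**Figure D3:**
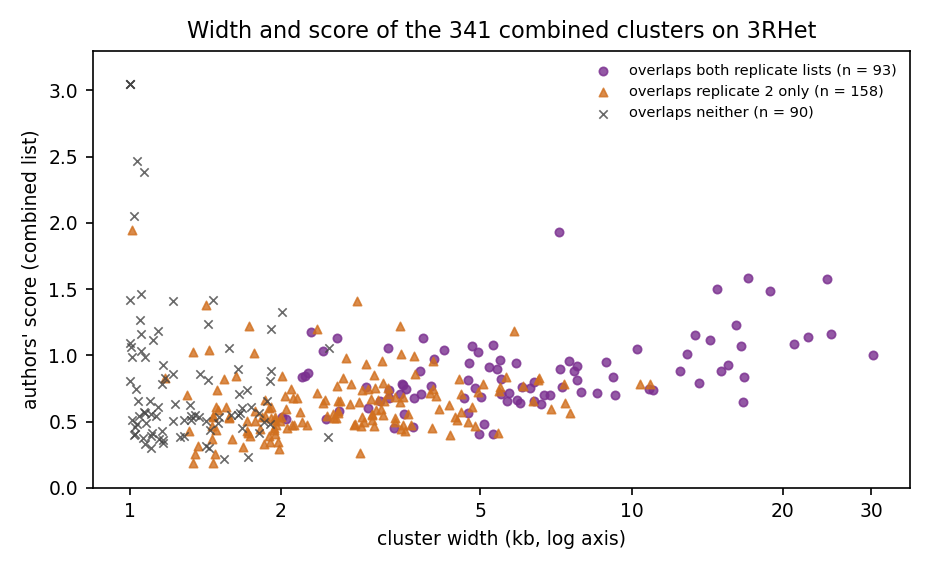
Authors' score in the combined list (y axis) against width in kb on a log axis (x axis) for the 341 combined clusters of 3RHet, by the replicate lists they overlap. Clusters seen in both lists are 2.02 kb or wider, and the 5 highest scores, of 2.38 to 3.05, belong to clusters of at most 1.07 kb seen in neither list.

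The highest scores of the combined list on 3RHet were on narrow clusters that neither replicate list held. The clusters 721294 to 722294, 2012778 to 2013778 and 2224038 to 2225038 each had a width of exactly 1001 bp, the smallest in the list, and the same score of 3.05. They were followed by 1148508 to 1149542 (1.04 kb, score 2.46) and 2225256 to 2226322 (1.07 kb, 2.38). Of the 11 combined clusters of 3RHet with a score over 1.5, 7 were at most 1.1 kb wide and 6 were seen in neither replicate. Over all sequences 421 combined clusters had such a score, of which 142 were at most 1.1 kb wide and 224 were seen in neither. The share seen in neither on 3RHet was thus near the background. Clusters up to 1.1 kb had a median score of 0.987 with an interquartile range of 0.526 to 1.44. Those of 1.1 to 5 kb had a median of 0.590 (0.480 to 0.772) and those over 5 kb a median of 0.813 (0.711 to 0.962).

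The replicates also differed in which clusters led their own lists. The 5 highest-scoring replicate 1 clusters of 3RHet all lay outside the block and were narrow, at 1.30 to 2.45 kb. They were 2266797 to 2268145 (score 2.57), 1007274 to 1008988 (2.42), 1004834 to 1006521 (1.70), 1293507 to 1295951 (1.63) and 899982 to 901285 (1.59). The first 2 ranked 7 and 10 among all 4092 replicate 1 clusters. Each of the 5 overlapped a replicate 2 cluster, with best scores of 0.972 to 1.26 there, and a combined cluster with a score of 0.836 to 1.05 in the combined list. The second and the third lay 0.752 kb apart.

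In replicate 2, 4 of the 5 leading clusters lay in the block. They were 1704786 to 1712051 (7.27 kb, score 2.26), 1820066 to 1844708 (24.6 kb, 1.94), 1636615 to 1655046 (18.4 kb, 1.94) and 1846278 to 1848836 (2.56 kb, 1.94). The one outside was 135705 to 137237 (1.53 kb, 2.09). The last 2 named had no replicate 1 partner, and the other 3 correspond to the first, the third and the fifth of the combined clusters seen in both lists. The sizes of scores were not compared between lists, since their scale may differ, and between lists only the ranks of scores were related.

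The combined list recovered all 127 replicate 1 clusters and 266 of 270 replicate 2 clusters of 3RHet. Recovery was similar on the compared stretches. For replicate 1 it was 226 of 226 on 3LHet, 84 of 86 on the proximal 3 Mb of 3R and 147 of 147 on chromosome 4. For replicate 2 it was 298 of 298, 160 of 165 and 150 of 151 in the same order. The 4 lacking on 3RHet were 442330 to 443968, 740565 to 742092, 895242 to 897208 and 2268831 to 2270180, with widths of 1.35 to 1.97 kb. Of these, 3 had high replicate 2 scores of 1.86, 1.69 and 1.73, which ranked 8, 13 and 11 among the 270, and the cluster at 740565 had a score of 0.435. The cluster at 2268831 lay 0.685 kb past the end of the leading replicate 1 cluster.

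HP2 clusters were absent from several long stretches of the scaffold. The 3 longest without a combined cluster ran from 445893 to 531733 (85.8 kb), from 312977 to 366659 (53.7 kb) and from 2381335 to 2432525 (51.2 kb). No cluster of either replicate lay in any of them. The median distance between combined clusters was 1.33 kb, and 22 of 341 stretches without a cluster were longer than 10 kb. How much of a stretch could be mapped is not visible in the lists, so an empty stretch cannot be taken as free of HP2.

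3RHet was more densely covered than the assembled start of its own arm and less densely than the scaffold of the other arm of chromosome 3. On 3RHet the cover was 14.3% and 44.3% in replicates 1 and 2, against 6.10% and 12.5% on the proximal 3 Mb of 3R. The fold was 2.34 in replicate 1 and 3.55 in replicate 2 (2.94 ± 0.86, SD, n = 2), in the same direction and larger than the spread. In the higher-scoring 50% of each list the mean fold was 6.72, and with lists of equal length it was 4.56. The first 3 windows of 100 kb on 3R, at the end of the arm nearest to the centromere, were covered to 12.7%, 4.17% and 16.3% in replicate 1 and to 39.0%, 15.8% and 32.6% in replicate 2. The first of them came near the level of the whole of 3RHet. The files do not place or orient 3RHet with respect to 3R.

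The same 14.3% and 44.3% on 3RHet stood against 26.7% and 62.2% on 3LHet, a scaffold of nearly equal length at 2.56 Mb. The cover of 3RHet was 0.53-fold that of 3LHet in replicate 1 and 0.71-fold in replicate 2 (0.62 ± 0.13, SD, n = 2). Relative to chromosome 4, which had 39.3% of its sequence under replicate 1 clusters and 64.3% under replicate 2 clusters, the cover of 3RHet was 0.36-fold and 0.69-fold (0.53 ± 0.23, SD, n = 2). Against all sequences without the unplaced Uextra, 3RHet itself included, the cover was 1.99-fold and 2.87-fold (2.43 ± 0.62, SD, n = 2). These 3 folds differed from 1 by more than their SD and had the same direction in each replicate.

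**Figure D4:**
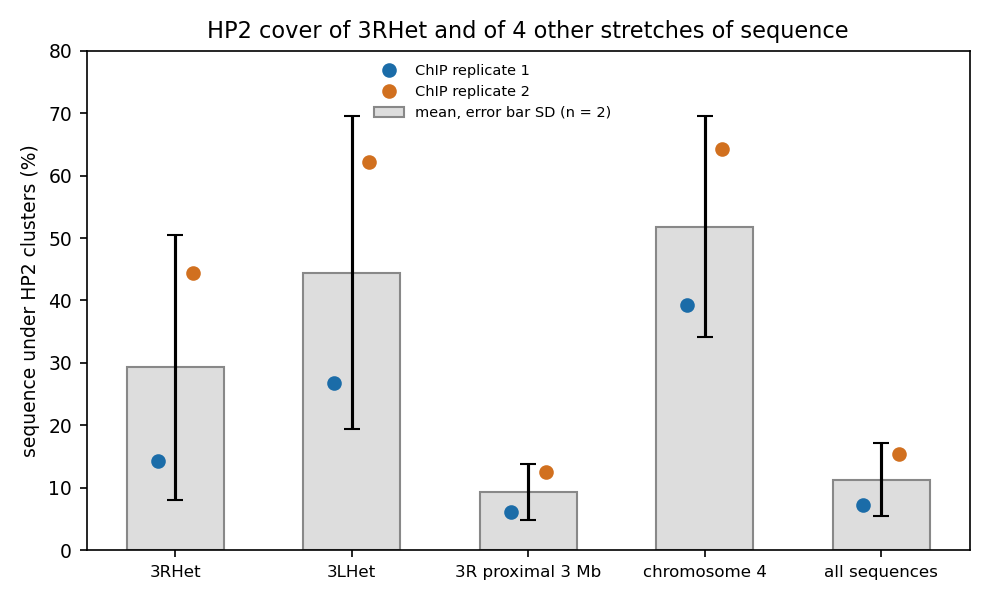
Percentage of sequence under HP2 clusters (y axis) on 3RHet, 3LHet, the proximal 3 Mb of 3R, chromosome 4 and all sequences (x axis). Points are ChIP replicates 1 and 2, bars their mean and error bars the SD (n = 2); 3RHet, at 14.3 and 44.3%, lies below 3LHet and chromosome 4 and above the proximal 3R in each replicate.

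The cover of 3RHet was also more uneven than that of the compared stretches in replicate 1. The 6 densest of its 26 windows held 63.7% of the replicate 1 cover. On 3LHet the 6 densest of 26 windows held 40.2%, and on the proximal 3R the 6 densest of 30 held 45.8%. On chromosome 4 the 3 densest of 14 windows held 29.8%. In replicate 2 these shares were 36.4% on 3RHet, 29.7% on 3LHet, 46.2% on the proximal 3R and 28.0% on chromosome 4. In that replicate the proximal 3R and not 3RHet was the most uneven. The stretches differ in mean cover and in the fraction of windows taken, which was not allowed for. The 5 windows of 3RHet above its cover in both replicates formed 1 run of 5, against 12 of 26 such windows on 3LHet, whose longest run was also 5. On the proximal 3R, set against the cover of the whole arm, there were 15 of 30 such windows with a longest run of 7, and on chromosome 4 there were 6 of 14 with a longest run of 2. These differences were not tested, since 2 libraries cannot give a p under 0.5 in a sign-flip test.

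Replicate 1 clusters recurred in replicate 2 in 127 of 127 cases on 3RHet and in 226 of 226 on 3LHet (95% interval 98.4 to 100%). On chromosome 4 it was 145 of 147, or 98.6% (95.2 to 99.8%), and on the proximal 3R 72 of 86, or 83.7% (74.2 to 90.8%). The share of combined clusters seen in both lists was 27.3% on 3RHet (95% interval 22.6 to 32.3%), against 41.6% (36.2 to 47.3%) of 317 on 3LHet, 23.8% (18.9 to 29.2%) of 282 on the proximal 3R and 42.3% (34.9 to 50.0%) of 175 on chromosome 4. Overlap by chance rises with cover, so these shares do not rank the stretches. Median widths of combined clusters were 2.54 kb on 3RHet, 3.40 kb on 3LHet, 1.65 kb on the proximal 3R and 2.36 kb on chromosome 4. Their median combined scores were 0.663, 0.761, 0.343 and 0.439 in the same order, so that scores on 3RHet stood nearer to those of 3LHet than to those of the arm. In replicate 1 the order of 3RHet and 3LHet was the opposite, with median scores of 0.752 and 0.710.

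No genome or gene annotation of release 5 was used here, so the clusters are given by position and were not assigned to genes, repeats or sequence motifs.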

How the data were processed

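Per the submitters' processing notes, reads were aligned with Bowtie version 0.12.7. The authors deposited 3 GFF3 lists of enriched clusters, 1 for each ChIP library and 1 for the replicate set, with a score for each cluster. Per the file headers, positions refer to FlyBase release 5, and they are printed here 1-based. The sources used here name no region caller or threshold and do not say what scale the score has or how replicates were combined.

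Clusters past the end of a sequence were trimmed to it, which affected 1 combined cluster and 1 replicate 2 cluster on 3RHet. Overlap means at least 1 bp. Cover was computed in Python 3.11.15 with pandas 2.3.3, numpy 2.4.6 and SciPy 1.17.1. The interval functions gave the same values as a base-by-base count on 20 simulated lists. The clusters named are the 10 highest-scoring ones seen in both replicates, the 10 widest, the 5 highest-scoring seen in neither, the 5 highest-scoring of each replicate, the 3 longest empty stretches, the 5 densest and 5 least dense windows, and any set of 5 or fewer. The scaffold, the comparisons and these rules were chosen with earlier results of these data known. The block, its flanks and the evenness of cover were described after seeing the values. The input libraries contribute only through the calls made by the authors.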

Additional observations from a re-analysis of the deposited data

How the results depend on the processing

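No paired analysis was possible because the input libraries have no list of their own here and no result comes from a test. With 1 replicate left out, the cover of 3RHet ranged from 14.3 to 44.3%, its fold over 3LHet from 0.53 to 0.71, over the proximal 3R from 2.34 to 3.55 and over chromosome 4 from 0.36 to 0.69. No fold changed direction. In the higher-scoring 50% of each list the fold over the proximal 3R was 6.72, the median width of replicate 2 clusters 3.16 kb and their median score 0.953. With lists of equal length the fold over the proximal 3R was 4.56. Without the 500 kb block of 3RHet, an alternative added after seeing the data, the fold over 3LHet was 0.44. Here 3LHet was kept whole, so a lower fold follows from the setting itself. The share of combined clusters seen in both replicates was 9.38% when 1 cluster of each replicate had to overlap 50% of the combined cluster. It was also 9.38% with a reciprocal overlap of 50%, and 36.0% with clusters within 1 kb merged. With a reciprocal overlap of 50%, 31.5% of replicate 1 and 14.8% of replicate 2 clusters were overlapped. Merging gave median widths of 3.45 kb in replicate 2 and 3.49 kb in the combined list. Windows above the scaffold's cover in both replicates numbered 13 at 50 kb and 2 at 200 kb, where fewer or more windows follow from the window width. At 50 kb 5 of the 13 lay outside the block. For these moves the cause was not tested. The depth is unknown, so no value could be weighted by it.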

Other observations

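Some of the highest combined scores on 3RHet, carried by narrow clusters that neither replicate list held, were repeated values. The top score of 3.05 was carried by 3 clusters of 3RHet and, to within 1e-06, by 16 combined clusters over all sequences. The clusters next in order lay below it by 0.585 (1148508 to 1149542) and 0.667 (2225256 to 2226322), that at 69376 to 70396 by 1.00 and that at 286670 to 287724 by 1.58. Read as powers of 2, these differences correspond to factors of 0.667, 0.630, 0.500 and 0.333. On 3RHet 13 of 341 combined clusters, or 3.81%, shared their score with another cluster of the scaffold, and 96, or 28.2%, shared it with any of the 12660 combined clusters. Over all sequences 37.0% of the combined clusters shared a score within that same pool. The narrow clusters 2224038 to 2225038 and 2225256 to 2226322 lay next to each other. How the authors computed the score was not tested.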
